A study of Rattus norvegicus with 6 samples.

Results

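Adventitial fibroblasts are the mesenchymal cells of the outer layer of an artery, and a culture of vascular smooth muscle (VSM) cells started from a whole vessel may carry some of them along. A set of 10 non-matrix and surface markers of these cells, Cd34, Pi16, Dpp4, Dpt, Scara5, Thy1, Tcf21, Fap, Clec3b and S100a4, was taken by gene symbol from the count table as a check on the make-up of the cultures. Of the 10, 9 were found among the 14475 genes, and Tcf21, a transcription factor of mesenchymal progenitors, was not matched by its symbol and is not analysed here. The libraries came from VSM cells grown in serum-containing medium from the soleus feed artery (SFA), which supplies the soleus muscle, of male Fischer 344 rats. The young group held 3 rats aged 4 months and the old group 3 rats aged 24 months, with no other treatment and 1 library of polyadenylated RNA per rat. Neither the passage number nor any purification of the cultures is stated in the sources used here.

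In blood vessels Pi16, Cd34, Dpp4, Dpt and Clec3b are used together to recognize resting fibroblasts of the adventitia, whereas Fap is better known from activated fibroblasts in wounds and tumors. Thy1 and S100a4 are less restricted and are also made by other cells, such as leukocytes and cultured mural cells. In bulk RNA, more cells of a type cannot be told apart from more RNA of that gene per cell.

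Levels are given as normalized CPM, in which each count is divided by a library size scaled with TMM, and they are not corrected for transcript length. Total counts ranged from 44235674 to 59700887 per library, so that 10 counts amounted to 0.166 to 0.222 CPM. Smooth muscle α-actin (Acta2) was at 1126 CPM or more and the smooth muscle myosin gene Myh11 at 77.9 CPM or more in each library. Both were lower in the old cultures (log2 fold change -2.27 and -3.08). Their adjusted p was 0.0636 and 0.0648 from edgeR's quasi-likelihood test, and 2.66e-08 and 4.63e-08 from DESeq2. The old group was less uniform than the young, with old replicate 1 closest to the young libraries for proliferation genes (see the summed levels given further on).

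To ask whether old cultures carried more of these transcripts, old and young VSM cells were compared gene by gene. Clec3b was 8.90-fold higher in old cultures, Fap 2.57-fold and Dpp4 18.7-fold as ratios of the mean CPM, and for these 3 genes each old library lay above each young library. Pi16, Scara5, Dpt and Cd34 had higher means in old cultures but overlapping groups, and Thy1 and S100a4 had slightly lower means. With edgeR, 0 of the 9 markers passed an adjusted p under 0.05 and a log2 fold change of 1 or more in size, as did 0.00691% of all genes. A log2 fold change of 1 or more upward was reached by 6 of the 9, against 5.07% of all genes. At an unadjusted p under 0.05, 4 of the 9 were higher (Clec3b, Fap, Dpp4 and Pi16) and 0 were lower, where 22.6% of all genes passed, 11.2% higher and 11.5% lower. DESeq2, the tool of the study, called Clec3b, Fap and Dpp4 at the same thresholds, and 5.56% of all genes were called by it, 2.25% upward and 3.31% downward. At an adjusted p under 0.1 with the same fold threshold, edgeR listed the same 3 markers, beside 1.11% of all genes listed upward. The groups did not overlap for 3 of the 9 markers, against 29.2% of all genes, 14.5% higher in old and 14.7% lower. The median log2 fold change of the 9 was 1.36, and that of all genes was 0.018. Dpp4 reached the table only through its old libraries (its counts are given with the gene), so these counts were repeated for the other 8 markers. Of the 8, 5 had an upward log2 fold change of 1 or more, 3 were higher at an unadjusted p under 0.05 (11.2% of all genes), 2 had separate groups (14.5% of all genes in that direction) and DESeq2 called 2 (2.25% upward), with a median of 1.2.

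**Figure D1:**
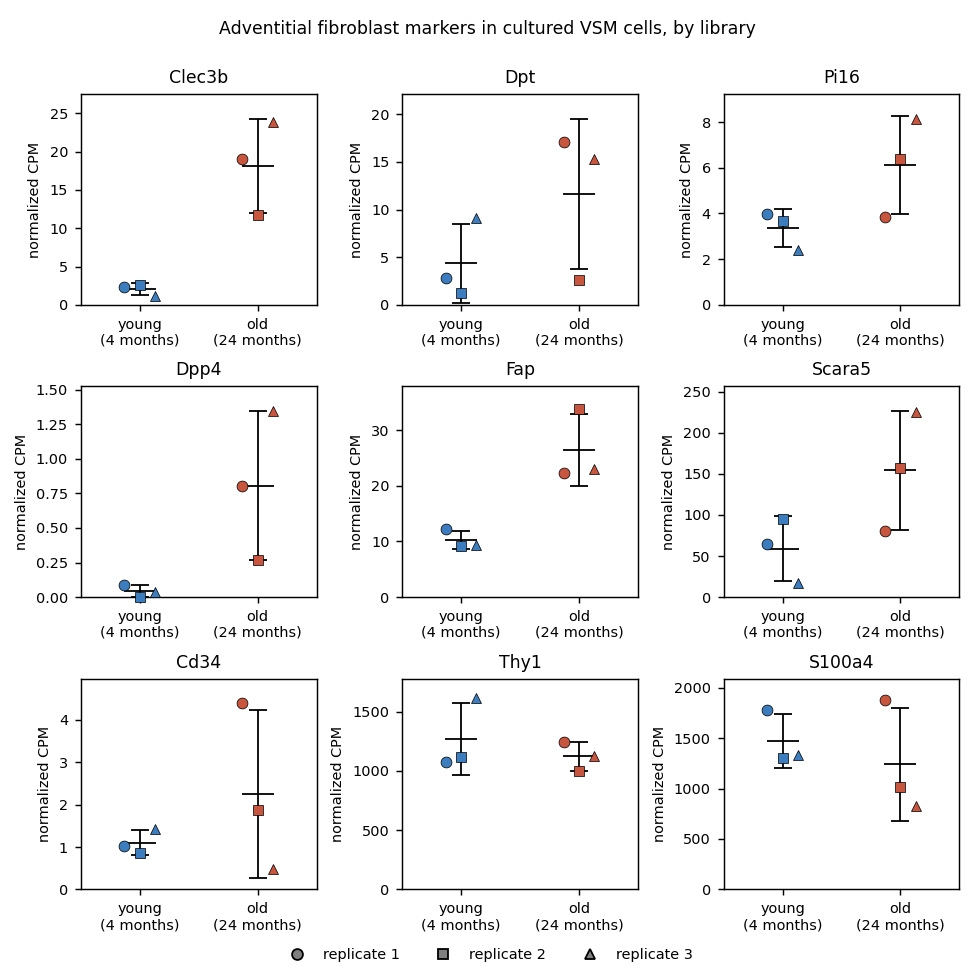
Normalized CPM (vertical axes, linear and starting at 0) of each of the 9 markers in the 3 young and 3 old libraries, with the mean and SD as bars (n = 3, cut at 0 for Dpp4) and replicate numbers as symbols. The old libraries lie above the young for Clec3b, Dpp4 and Fap, while Thy1 and S100a4 overlap.

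Among the secreted products, Clec3b (ENSRNOG00000004540), which encodes tetranectin, a plasminogen-binding lectin of plasma and connective tissue, gave the clearest separation. Its level was 2.37, 2.58 and 1.18 CPM in young replicates 1, 2 and 3 and 19.0, 11.7 and 23.9 CPM in old replicates 1, 2 and 3. The lowest old library was thus several times above the highest young one. The means were 2.04 ± 0.754 CPM (SD, n = 3) and 18.2 ± 6.14 CPM (SD, n = 3). Its log2 fold change was 3.15 (95% confidence interval 2.20 to 4.11, adjusted p = 0.0531 from edgeR and 8.87e-13 from DESeq2), the 35th smallest p of the 14475 genes.

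Dpt (ENSRNOG00000002947) encodes dermatopontin, a small matrix protein that binds decorin and collagen fibrils. It varied widely within both groups, with 2.79, 1.23 and 9.08 CPM in the young libraries and 17.1, 2.62 and 15.3 CPM in the old libraries. Old replicate 2 lay among the young libraries, and young replicate 3 stood above the rest of its group. The coefficient of variation of Dpt was 95.1% in young and 67.6% in old, where the median gene had 11.8% and 16.8%. The log2 fold change of 1.42 (95% confidence interval -0.76 to 3.60, adjusted p = 0.379 from edgeR) did not exceed this spread, and without young replicate 3 it was 2.54.

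Pi16 (ENSRNOG00000000525), peptidase inhibitor 16, is a secreted or membrane-anchored protein of the CAP family and marks a fibroblast population shared by many tissues. It had 3.97, 3.67 and 2.40 CPM in the young libraries and 3.86, 6.37 and 8.12 CPM in the old libraries. Old replicates 2 and 3 were above all young libraries, and old replicate 1 was not. Old minus young was 0.87 on the log2 scale (95% confidence interval 0.06 to 1.67), with an adjusted p of 0.200 from edgeR and 0.0968 from DESeq2.

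Fap and Dpp4 encode a pair of related membrane serine proteases that cut after proline. Fibroblast activation protein cleaves denatured collagen, and dipeptidyl peptidase 4 removes short N-terminal pieces from peptide hormones and chemokines. In the RefSeq annotation of assembly GRCr8 they are neighbors on the same strand, with the glucagon gene Gcg as the only protein-coding gene between them, and Gcg was not matched in the count table. Their promoter sequences are shown for description, as the genes are neighbors. Fap was higher in each old library than in any young one. For Dpp4, listed only through its old libraries, the same separation followed from the count filter and is not a result, so no shared rise of the neighbors is claimed. The window holds 250 bases before and 50 bases after the annotated start, taken from RefSeq (GRCr8), and capitals mark matches on either strand to the E-box (CANNTG), the CCAAT box (CCAAT), the AP-1 site (TGANTCA), the TEAD site (CATTCC), the GC box (GGGCGG) or the TATA box (TATAAA), with no overlap between matches shown.
Dpp4, chr3:67452373-67452672, minus strand: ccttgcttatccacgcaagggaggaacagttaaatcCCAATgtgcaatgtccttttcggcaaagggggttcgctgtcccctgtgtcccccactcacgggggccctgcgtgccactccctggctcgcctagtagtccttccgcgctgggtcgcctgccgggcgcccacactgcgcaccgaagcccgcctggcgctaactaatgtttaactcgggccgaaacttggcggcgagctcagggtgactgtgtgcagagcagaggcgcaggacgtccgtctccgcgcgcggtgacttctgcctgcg
Fap, chr3:67616042-67616341, minus strand: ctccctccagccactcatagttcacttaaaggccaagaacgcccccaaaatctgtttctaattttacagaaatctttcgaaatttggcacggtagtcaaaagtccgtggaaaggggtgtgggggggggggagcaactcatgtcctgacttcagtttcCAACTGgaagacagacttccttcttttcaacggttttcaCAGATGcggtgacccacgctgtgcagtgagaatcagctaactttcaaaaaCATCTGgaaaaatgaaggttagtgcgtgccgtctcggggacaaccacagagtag
The Dpp4 window had 1 match, to CCAAT, which 37.5% of 33469 promoter windows of this length contain. In the Fap window there were 3 matches to CANNTG, a pattern found in 72.1% of the windows, and the windows of Dpp4 and Fap had no matched pattern in common. GC content was 64.0% for Dpp4 and 48.0% for Fap. Promoter windows were present for 7 of the 10 markers, among which TATAAA occurred in those of Dpt and S100a4, at 29 and 31 bases before the start.

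Fap (ENSRNOG00000005679) had 12.2, 9.21 and 9.42 CPM in the young libraries and 22.3, 33.8 and 23.1 CPM in the old libraries. The replicates were tighter than for Dpt, with coefficients of variation of 16.2% in young and 24.3% in old. The mean went from 10.3 ± 1.66 CPM (SD, n = 3) to 26.4 ± 6.41 CPM (SD, n = 3), a log2 fold change of 1.36 (95% confidence interval 0.86 to 1.86, adjusted p = 0.0557 from edgeR and 1.37e-06 from DESeq2).

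Dpp4 (ENSRNOG00000030763) was near the lower end of detection. The young libraries had 4, 0 and 2 counts and the old libraries 40, 14 and 72 counts, which is 0.0886, 0 and 0.0407 CPM against 0.804, 0.269 and 1.34 CPM. Over the groups there were 6 counts in young and 126 in old. All 6 counts were even, as they would be if each mate had been counted separately, so the number of fragments may be lower still. The table lists genes that reached 10 counts in 3 or more libraries, so Dpp4 was present only through its 3 old libraries and could not have been listed without a higher level in old. The log2 fold change was 4.25 (95% confidence interval 1.85 to 6.64, adjusted p = 0.09999 from edgeR and 0.00219 from DESeq2), and its size depends on the few young counts: it was 5.26 without young replicate 1, 3.60 without young replicate 2 and 3.66 without old replicate 3.

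**Figure D2:**
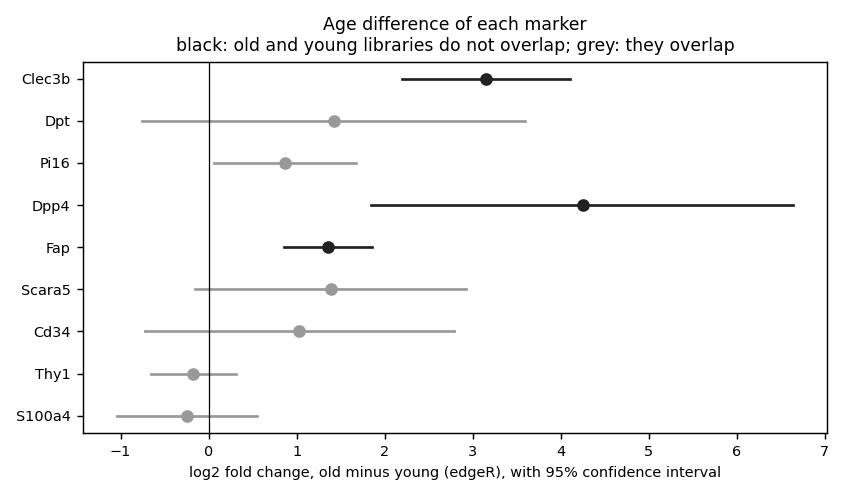
Log2 fold change of each marker, old minus young, from edgeR (points) with its 95% confidence interval (lines), in black where the old and young libraries do not overlap. The intervals of Clec3b, Dpp4, Fap and Pi16 lie above 0, and the other 5 include 0.

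On the cell surface, Scara5 (ENSRNOG00000014398), a scavenger receptor that takes up ferritin, had 64.6, 95.2 and 17.3 CPM in the young libraries and 80.7, 157 and 226 CPM in the old libraries. Old replicate 1 lay below young replicate 2, while the other old libraries were above all young libraries. On the log2 scale the difference was 1.39 (95% confidence interval -0.16 to 2.93, adjusted p = 0.253 from edgeR).

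Cd34 (ENSRNOG00000045558), a sialomucin of progenitor, endothelial and adventitial cells, had few reads, between 26 and 219 counts per library. Its levels were 1.02, 0.864 and 1.43 CPM in young and 4.40, 1.89 and 0.485 CPM in old. The old group held both the highest and the lowest library. The log2 fold change of 1.03 (95% confidence interval -0.72 to 2.79, adjusted p = 0.422 from edgeR) rested on old replicate 1 and was 0.10 without it.

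Thy1 (ENSRNOG00000006604), a GPI-anchored glycoprotein of fibroblasts, neurons and T cells, was well covered, with at least 48514 counts per library. It had 1075, 1118 and 1615 CPM in the young libraries and 1244, 998 and 1127 CPM in the old libraries. The groups overlapped, and a single library, young replicate 3, stood apart. Thy1 had a log2 fold change of -0.18 with a 95% confidence interval of -0.66 to 0.31, that is between 0.633 and 1.24 times the young level, and an adjusted p of 0.615 from edgeR. An increase of the size seen for Fap or Clec3b lay outside this interval.

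S100a4 (ENSRNOG00000011821), a calcium-binding protein once used as a fibroblast marker, had 1775, 1303 and 1333 CPM in young and 1875, 1020 and 824 CPM in old. The old group again held both ends, with old replicate 1 above and old replicates 2 and 3 below all young libraries. For S100a4 the log2 fold change was -0.25 (95% confidence interval -1.04 to 0.55, edgeR adjusted p = 0.671), and omitting old replicate 1 moved it to -0.67.

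The markers did not follow a single order across the old libraries. Pi16 and Scara5 were highest in old replicate 3 and lowest in old replicate 1, and Cd34 and S100a4 had exactly the reverse order. Clec3b and Dpp4 were highest in old replicate 3 and lowest in old replicate 2, Dpt was highest in old replicate 1, and Fap in old replicate 2. Among the young libraries, replicate 3 was the lowest for Pi16, Scara5 and Clec3b but the highest for Cd34, Dpt and Thy1. The markers as a set thus shared no single order within an age group, and the orders of Cd34 and Dpp4 rest on few counts. Pi16 and Scara5, however, lay on the same side of their group means in each library. Whether markers rose and fell together from culture to culture was not tested, and orders of so few libraries cannot decide it.

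Leaving out old replicate 1 changed the calls more than leaving out any other library. Without it, edgeR called Fap and Clec3b (adjusted p = 0.0298 for each), with 5.06% of all genes called and 1.58% called upward. DESeq2 then called Pi16, Dpp4, Scara5, Fap and Clec3b, compared with 3.70% of all genes called upward. The groups no longer overlapped for 6 markers, with Pi16 and Scara5 joining the higher ones and S100a4 lower in old, against 52.6% of all genes, 26.8% higher and 25.8% lower. Both the DESeq2 calls and the separate markers include Dpp4, which was listed only through its old libraries and is not a result here. Omitting each of the other libraries left 0 of the 9 called by edgeR. Across these omissions the log2 fold change of Clec3b stayed between 2.88 and 3.39, and that of Fap was at least 1.14.

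**Figure D3:**
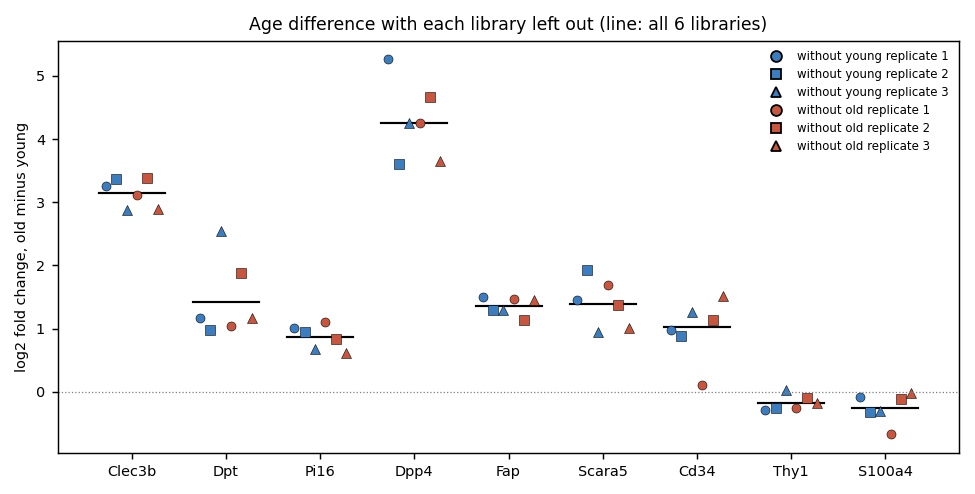
Log2 fold change of each marker, old minus young (vertical axis), with all 6 libraries (black line) and after omission of single libraries (symbols, colored by the age group of that library). Clec3b, Dpp4 and Fap stay above 1 throughout, whereas Cd34 drops to 0.10 without old replicate 1 and Dpt reaches 2.54 without young replicate 3.

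Thy1 and S100a4 together made up 86.8% to 98.6% of the summed CPM of the 9 markers, so a plain sum mostly reports these genes. That sum was 2937, 2533 and 2989 CPM in young and 3267, 2231 and 2249 CPM in old, with overlapping groups. Without Thy1 and S100a4, a selection made after the values were seen, the other 7 summed to 87.0, 113 and 40.9 CPM in young and 148, 213 and 298 CPM in old. Scara5 carried most of the latter sum in 5 of the 6 libraries, young replicate 3 being the exception.

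Further fibroblast genes were read as lists beside the markers. Of 20 matrix and secreted genes of fibroblasts, 18 were higher in old cultures, with a median log2 difference of 0.75. At an unadjusted p under 0.05, 7 were higher and 0 lower, where 11.2% of all genes were higher and 11.5% lower. DESeq2 called 5 of the 20, all upward, against 2.25% of all genes called upward. The genes with the smallest p in this list were Col14a1, a fibril-associated collagen (148 ± 80.1 to 800.3 ± 281 CPM, SD, n = 3 each), Sfrp2, a secreted Wnt modulator (0.405 ± 0.309 to 3.70 ± 2.06 CPM), and Col3a1. Of 11 other fibroblast genes (receptors, surface proteins, nuclear factors and Vim), 7 were higher and 4 lower, with a median of 0.31. At an unadjusted p under 0.05, 4 were higher and 1 lower. Pdgfra, the PDGF receptor that sets fibroblasts apart from mural cells, averaged 234 ± 77.6 CPM in young and 464 ± 148 CPM in old (SD over 3 libraries, edgeR adjusted p = 0.159), and Twist1 and Lrp1 were also higher in each old library. The gene lower at that level was Osr1, a transcription factor of mesenchymal progenitors, with 15.1, 50.7 and 77.8 CPM in young and 12.6, 10.9 and 15.7 CPM in old. Its groups overlapped (log2 fold change -1.87, adjusted p = 0.137 from edgeR and 0.00609 from DESeq2). Osr1 was the 1 gene of this list that DESeq2 called, against 3.31% of all genes called downward, and is named here after its values were seen. None of these genes passed the adjusted threshold in edgeR, whose smallest adjusted p over all genes was 0.0304.

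Contractile smooth muscle genes and proliferation genes had mostly lower values in old cultures, and 0 of either list passed the adjusted threshold in edgeR. DESeq2 called 14 of the 19 contractile genes and 1 of the 10 proliferation genes, all downward, against 3.31% of all genes called downward. Of 19 contractile genes, 18 were lower in old cultures and 16 were so at an unadjusted p under 0.05, as were 11.5% of all genes. The list had a median log2 difference of -1.78 and summed levels of 12770 to 24050 CPM in young and 3986 to 6285 CPM in old. All 10 proliferation genes were lower, 4 at an unadjusted p under 0.05, with a median of -1.23. Their summed level was 701, 461 and 698 CPM in young and 500.5, 175 and 147.5 CPM in old, so old replicate 1 lay within the young range. The part of proliferation or of the contractile genes in the differences of the fibroblast markers was not tested.

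**Figure D4:**
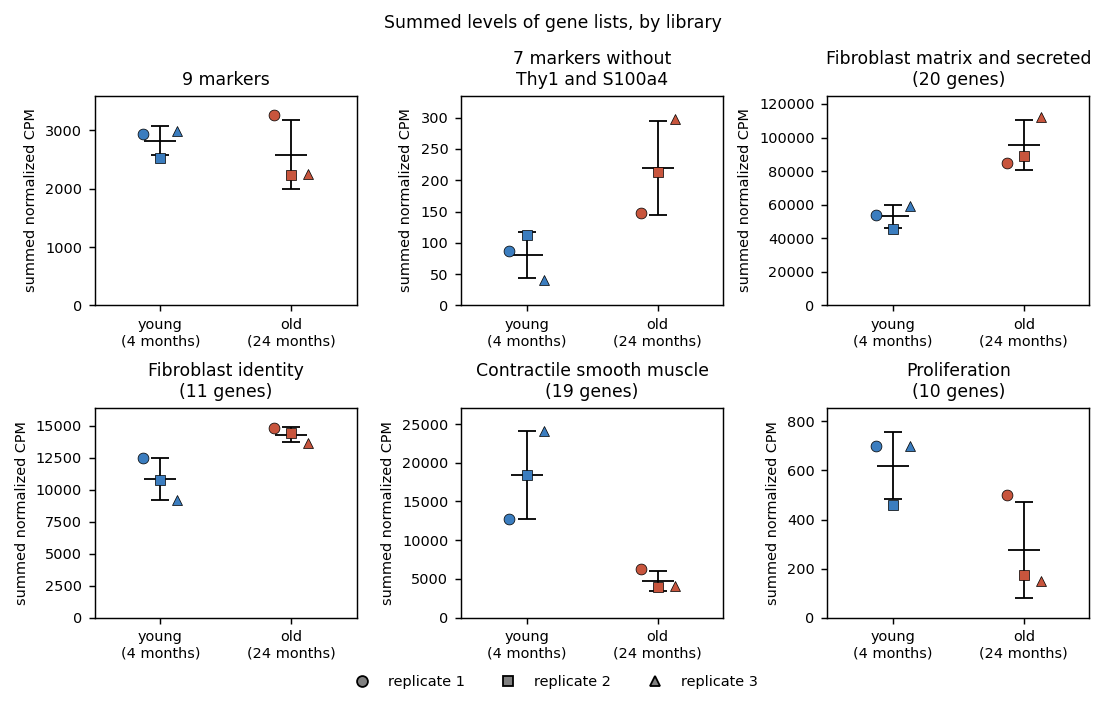
Summed normalized CPM (linear axes from 0) of the 9 markers, of 7 markers without Thy1 and S100a4, and of 4 other gene lists in each library, with mean and SD (n = 3). The matrix and identity lists and the 7 markers are higher in each old library, and the sum of all 9 markers overlaps. Most of the identity sum in each library is Vim (6997 to 10950 CPM), whose own groups overlap. Contractile genes are lower in each old library, and old replicate 1 lies among the young libraries for proliferation genes.

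Markers of other cells that a vessel preparation could hold were also counted. Of 14 endothelial genes 7 were found, with Pecam1 between 0.244 and 0.765 CPM and Cdh5 not matched. Egfl7 was the highest of them at 12.9 to 31.7 CPM, followed by Tek at 2.64 to 16.8 CPM, both with overlapping groups. At an unadjusted p under 0.05 (11.2% of all genes higher, 11.5% lower), 0 were higher and 2 lower (Flt1 and Erg). Of 14 macrophage and leukocyte genes 3 were found, with 0 at that level, and Ptprc was not matched. Cd14 was the highest of the 3, at 4.72 to 13.9 CPM with overlapping groups. Of the Schwann cell genes, S100b was at 10.5 to 72.6 CPM in young and 50.8 to 81.2 CPM in old, with overlapping groups, and Sox10 was not matched. Satellite cell and skeletal muscle genes were found for 4 of 14 (1 higher and 1 lower at an unadjusted p under 0.05), and Pax7 and Myod1 were not matched. Their sum was lower in each old library (28.4 to 46.6 CPM against 86.7 to 264 CPM), mostly through Acta1, an actin that smooth muscle cells also express. For mesothelial and adipocyte genes, 5 of 12 were found, 0 of them at an unadjusted p under 0.05, with Msln at 2.65 to 34.2 CPM and Adipoq not matched. The table held genes with at least 10 counts in at least 3 libraries, so a gene that was not matched may have had fewer reads or another name.

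To see which transcripts behaved most like Clec3b, the marker with the smallest p, the centred log2 CPM of 12948 other named genes was compared with it over the 6 libraries. The closest were Gas7 (root mean square difference 0.411 on the log2 scale), C5ar2 (0.428) and Col14a1 (0.480). Gas7 had 20.8, 17.4 and 8.59 CPM in young and 78.2, 86.5 and 101.8 CPM in old, and C5ar2 had 1.55, 2.13 and 1.06 CPM in young and 7.10, 6.71 and 12.0 CPM in old.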

How the data were processed

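RNA was sequenced from cultured VSM cells of 3 young and 3 old rats, with groups taken from the sample titles. The authors deposited raw counts per gene, made by trimming with Cutadapt 3.5 and Trim Galore 0.6.7, aligning with STAR 2.7.10b to Rnor 6.0 and counting with featureCounts (Subread 2.0.8). How strand, mates and multi-mapping reads were treated is not given in these sources, so overlapping or antisense genes may share reads. Even values made up 68.7% to 71.1% of low counts (1 to 19). The total counts of each library also exceeded the reads per sample that the authors state, as they would if each mate had been counted separately.

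Old was compared with young in R 4.3.3 with edgeR 4.0.16 (TMM, quasi-likelihood F test, Benjamini-Hochberg adjustment over 14475 genes, age as the only term). The 95% confidence intervals rest on a standard error derived from the F statistic and on the degrees of freedom of the fit. Alternatives were DESeq2 1.42.0, limma-voom 3.58.1, other scalings and filters, halved counts, a replicate block and each library left out. The p-values come from setting the age difference against the spread between these cultures. The markers and lists were chosen with earlier results of these data known. All 9 matched markers are named. From the other lists, genes were named by smallest p among those with separate groups, by level, or as defining markers of a cell type. Promoter windows come from RefSeq (GRCr8), and no protein sequences were used. The summary of the Schwann cell list is not reported here.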

Additional observations from a re-analysis of the deposited data

How the results depend on the processing

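The number of markers called with edgeR was 0 and moved with the tool, the filter and the threshold. It was 3 with DESeq2 (Clec3b, Fap and Dpp4), 3 at an adjusted p under 0.1 (the same 3 genes, with 1.11% of all genes passing upward) and 2 when genes needed at least 10 counts in all 6 libraries (Clec3b and Fap), a filter that removes Dpp4 and under which 0.737% of all genes were called, 0.380% upward. With each library left out it was 0 to 2, the 2 without old replicate 1. DESeq2 runs chosen after seeing the data gave 5 without old replicate 1 (9.51% of all genes called, 3.70% upward) and 4 without young replicate 3, where Dpt was added (4.15% of all genes, 1.95% upward). Each of these DESeq2 counts, and that at an adjusted p under 0.1, includes Dpp4, which was listed only through its old libraries. The number of markers with separate groups was 3 to 6 with a library left out. It was 6 without old replicate 1, Dpp4 and the lower S100a4 included. In that setting 52.6% of all genes had separate groups (26.8% higher, 25.8% lower), against 29.2% with all 6 libraries. The share of all genes was not taken for the other omissions. The median log2 fold change of the markers lay between 0.97 and 1.38 over 17 alternatives. Of 151 values of single markers, 133 kept their direction and side of the threshold, 16 passed it in addition, and 2 turned: Thy1 was 0.03 without young replicate 3 with edgeR and with DESeq2, and between -0.29 and 0.03 over the left-out libraries.

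With the replicate number as a block, edgeR called 0 markers, beside 1 of all 14475 genes. At an unadjusted p under 0.05 there were 4 markers, beside 3254 of all genes, with Dpt in the place of Pi16 (adjusted p = 0.156 and 0.289 from this edgeR fit). Dpp4, listed only through its old libraries, is among the 4. Deviations of same-numbered libraries correlated across genes with r = 0.021, 0.256 and 0.256. Differently numbered libraries were not compared, so these values cannot decide whether the numbers pair the cultures. The main test left the numbers out. The cause of these changes was not tested.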

Other observations

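Genes of activated fibroblasts, which also mark synthetic smooth muscle cells, were divided. Of 10, 5 were higher and 5 lower in old cultures, with a median log2 difference of 0.00. At an unadjusted p under 0.05 there were 2 each way, where 11.2% of all genes were higher and 11.5% lower. Their summed level was 17190, 17390 and 18600 CPM in young and 10620, 9370 and 12200 CPM in old. It was lower in each old library, mostly through Tnc (7720 to 9580 CPM in young, 1222 to 2801 CPM in old). Cthrc1, a secreted protein of collagen-making fibroblasts, averaged 30.4 ± 13.1 CPM in young and 126 ± 62.4 CPM in old (SD over 3 libraries, edgeR adjusted p = 0.0982). Tnc, the matrix protein tenascin C, averaged 8708 ± 936 CPM in young and 1848 ± 839 CPM in old (SD over 3 libraries, edgeR adjusted p = 0.0574).

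Genes used for pericytes also went both ways. Of the 7 found among 10, 2 were higher and 2 lower at an unadjusted p under 0.05, where 11.2% of all genes were higher and 11.5% lower. The median log2 difference was -0.14, and Rgs5 was not matched. Anpep, an aminopeptidase of pericytes and fibroblasts, averaged 27.8 ± 7.49 CPM in young and 149 ± 31.0 CPM in old, while Mcam, an adhesion molecule of mural and endothelial cells, had 89.2 ± 45.6 and 7.19 ± 0.962 CPM (SD over 3 libraries). Both had an adjusted p of 0.0531 from edgeR.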
